A study of Homo sapiens with 9 samples.

Results

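The genes described here are 9 subunits of the ER membrane complex (EMC), EMC1, EMC2, EMC3, EMC4, EMC6, EMC7, EMC8, EMC9 and EMC10, out of 28395 genes in the table of counts. They were taken by name, and the set was picked because EMC10 had no reads in HK2. The level of EMC10 in HK2 is therefore given as a description with no test, and the members called against HK2 are counted over the 8 others. MMGT1, which encodes the fifth subunit under another symbol, is no member and is given beside them.

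RNA was sequenced from 3 kidney cell lines, with 3 libraries of each and 9 in all. HK2 is labelled as parental proximal tubule cells, 786-O as parental cells of clear cell renal cell carcinoma (ccRCC), and 786-M1A as ccRCC cells that are a metastatic derivative of 786-O. No line was treated, and all of them were kept stably in Plasmax, a medium modelled on the nutrients of human serum. The libraries of a line came from replicate dishes, so the p-values measure only the spread between dishes. With 1 line on the HK2 side, a difference between lines and a difference between healthy and cancer cells cannot be told apart. Since 786-M1A derives from 786-O, a difference shared by both cancer lines is not a result of separate cancers.

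The EMC is an insertase of the endoplasmic reticulum that sits in its membrane. It places proteins with a moderately hydrophobic tail anchor, and the first membrane helix of many receptors and transporters, into the lipid bilayer. EMC3 and EMC6 line the cavity through which a helix enters, EMC2 with EMC8 or EMC9 forms the cytosolic face, and EMC1, EMC4, EMC7 and EMC10 build much of the membrane and lumenal parts.

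The 9 genes did not move together between the lines. EMC10 had 0 reads in HK2 and 2937 reads or more in every library of the cancer lines, EMC1 and EMC7 were higher in both cancer lines than in HK2, and EMC9 was lower in both. EMC2 passed the test in none of the 3 comparisons, and EMC3, EMC4 and EMC8 differed from HK2 by less than EMC1, EMC7 and EMC9 did. Of the 8 members tested between 786-M1A and 786-O, EMC7 and EMC10 passed the test, and both were lower in 786-M1A. Levels are given as reads of a gene per 1000000 reads counted on genes (CPM), scaled between libraries by the TMM method, and a library held between 30212291 and 45362428 counts. Each library averages over a dish, so fewer expressing cells and less RNA per cell cannot be told apart.

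**Figure D1:**
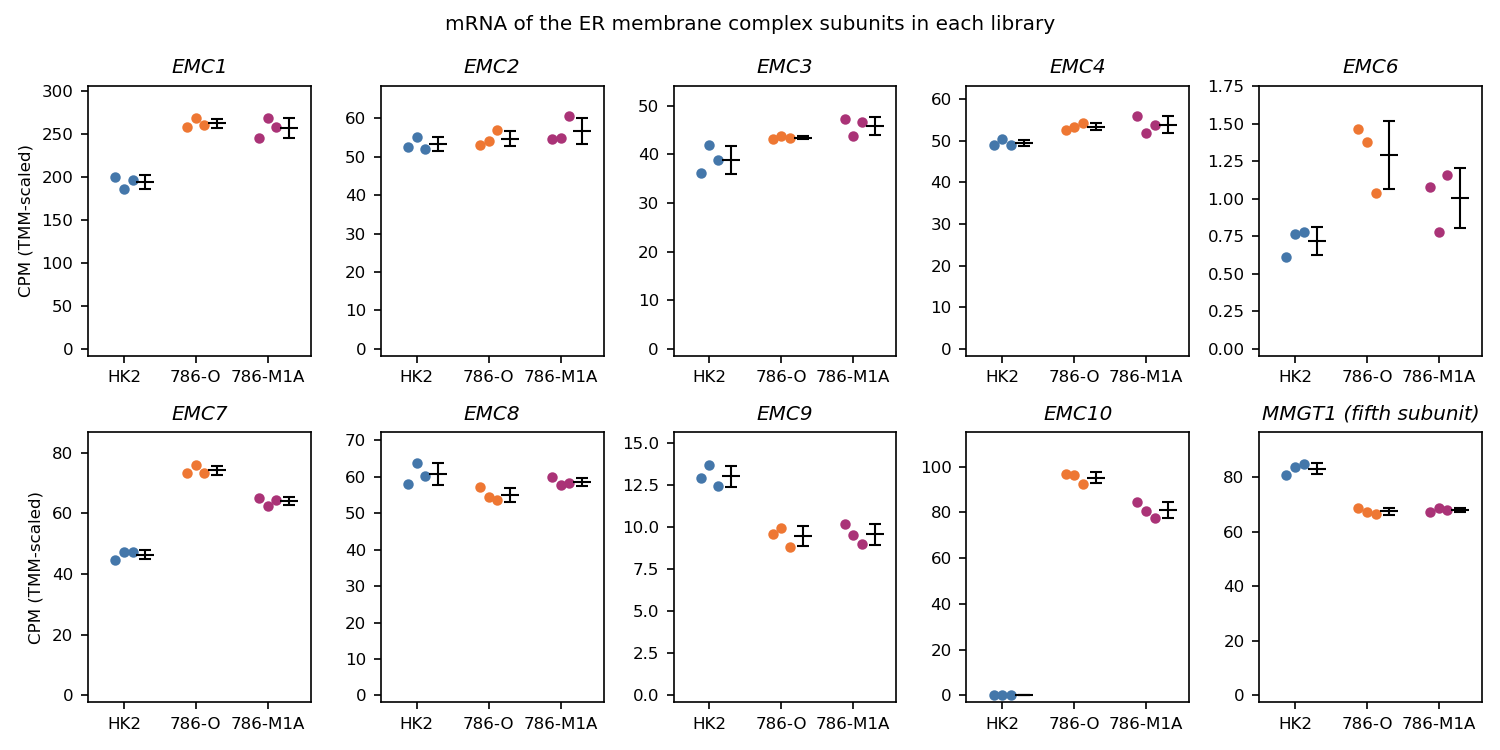
The level of each EMC subunit and of MMGT1 in CPM (y axis, starting at 0, with its own range in each panel) is plotted for every library of HK2, 786-O and 786-M1A (x axis). Each point is a library, and the bars are the mean ± SD of 3 libraries. EMC10 lies at 0 in all HK2 libraries and at 77.6 CPM or more in every library of the cancer lines, and EMC1 and EMC7 lie higher in both cancer lines than in HK2.

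EMC10, whose product is a lumenal subunit that caps the complex, spans chr19:50476507-50490871 on the plus strand of GRCh38. It had 0 reads in each HK2 library, which is 0 of 114626115 reads counted in the 3 libraries together. A count of 0 allows a level of up to 3 counts in a library, or between 0.0647 and 0.0964 CPM in HK2. In 786-O the level was 97.0, 96.5 and 92.4 CPM, from 3636 to 4304 reads. In 786-M1A it was 84.5, 80.6 and 77.6 CPM, from 2937 to 3095 reads. The lowest library of 786-O was at least 958-fold higher, and the lowest of 786-M1A at least 804-fold higher, than the highest level that 0 reads allow in an HK2 library.

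Other genes with 0 reads in HK2 are given beside EMC10 as a description. Of 12695 genes tested, 22 (0.173%) had 0 reads in every HK2 library, and in 2 of those 22 the lowest library of the cancer lines reached at least the 77.6 CPM of EMC10. The other was SLC17A9, a nucleotide transporter of vesicles, with a lowest level of 85.8 CPM. Further down were PREX2, an activator of Rac, with a lowest level of 37.6 CPM and WT1, a transcription factor of kidney development, with 33.8 CPM. EMC10 was chosen on these same libraries, so its place among the 22 is a description.

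Between the cancer lines, where EMC10 was not chosen for its values, its level fell by 15.1% from 786-O to 786-M1A. The mean was 95.3 ± 2.52 CPM (SD, n = 3) before and 80.9 ± 3.48 CPM (SD, n = 3) after this step. All 3 libraries of 786-M1A lay below all 3 of 786-O. On the log2 scale the change was -0.24 with a standard error of 0.0436, and the edgeR adjusted p was 0.000127. On median-centred log2 counts, with 0 set to 0.5, the change was -0.25 and did not pass the threshold (limma adjusted p = 0.11). That fit takes the spread of a gene over all 3 lines together, so the HK2 libraries set to 0.5 enter it. Whether this set the adjusted p was not tested.

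The promoter of EMC10 is shown because the gene is all or none between HK2 and the cancer lines. In the 250 bases before its start (RefSeq, GRCh38.p14) the letters TGACGTCA occur 3 times. This palindrome, the same on both strands, is the core of the cAMP response element that factors of the CREB and ATF families can bind. The matches begin 233, 206 and 113 bases before the gene start. Each is given with 10 bases on either side, on the plus strand, with the motif in capitals.
EMC10 site 1, chr19:50476264-50476291: acgcgcactgTGACGTCAtgatgcggag
EMC10 site 2, chr19:50476291-50476318: gcgggctttaTGACGTCAcacaagagcg
EMC10 site 3, chr19:50476384-50476411: cccatcctgcTGACGTCAggccccaggt
Of 35116 RefSeq promoter windows of the same length, 578 (1.65%) hold the motif at least once and 1 (0.00285%), that of EMC10, holds it 3 times. Promoters were matched for 8 of the 9 members, and the motif has 0 matches in the 7 others. The motif was picked after the sequence had been seen, so this is a description of the sequence, and no binding was measured.

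CpG dinucleotides, where promoters can be methylated, were also counted in those 250 bases. The EMC10 window holds 25 of them against a median of 11 over all windows, and 21.6% of windows hold at least as many. EMC8 with 35, EMC6 with 33 and EMC1 and EMC3 with 29 each hold more than EMC10. EMC7 has 18, EMC9 has 13 and EMC4 has 12. The RNA libraries measure no methylation.

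The genes beside EMC10 differed among themselves in how they compared between the lines. GARIN5A, a gene on the minus strand whose start lies inside EMC10 and whose span covers the motif sites, had 0 reads in each HK2 library as well. It had 13, 14 and 17 reads in 786-O and 12 in each library of 786-M1A, at least 3.03-fold and 3.24-fold more than 0 reads allow. Reads were assigned by position, the use of strand in counting is not given in the sources used here, and GARIN5A shares 324 exon bases with EMC10 (3.01% of the EMC10 exon bases in GENCODE release 44), so reads of both genes over these bases cannot be told apart.

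JOSD2, a deubiquitinase gene 15127 bases beyond the end of EMC10, was expressed in all 3 lines. Its mean was 7.45 ± 0.640 CPM (SD, n = 3 in each line) for HK2, 13.2 ± 1.33 CPM for 786-O and 14.6 ± 1.99 CPM for 786-M1A. The libraries of both cancer lines lay above those of HK2 and overlapped with each other. Against HK2, 786-O was 0.82 higher on the log2 scale (edgeR adjusted p = 6.89e-07) and 786-M1A 0.95 higher (edgeR adjusted p = 8.36e-08). LRRC4B, which encodes a synaptic adhesion protein and lies 26021 bases beyond EMC10, ran the other way, with 14.6, 12.6 and 16.0 CPM in HK2 and at most 2 reads in any library of 786-O or 786-M1A. MYBPC2, a muscle myosin-binding protein gene upstream, had 2 to 8 reads in HK2 and 0 elsewhere. SPIB had at most 1 read and ASPDH at most 4 reads in any library.

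**Figure D2:**
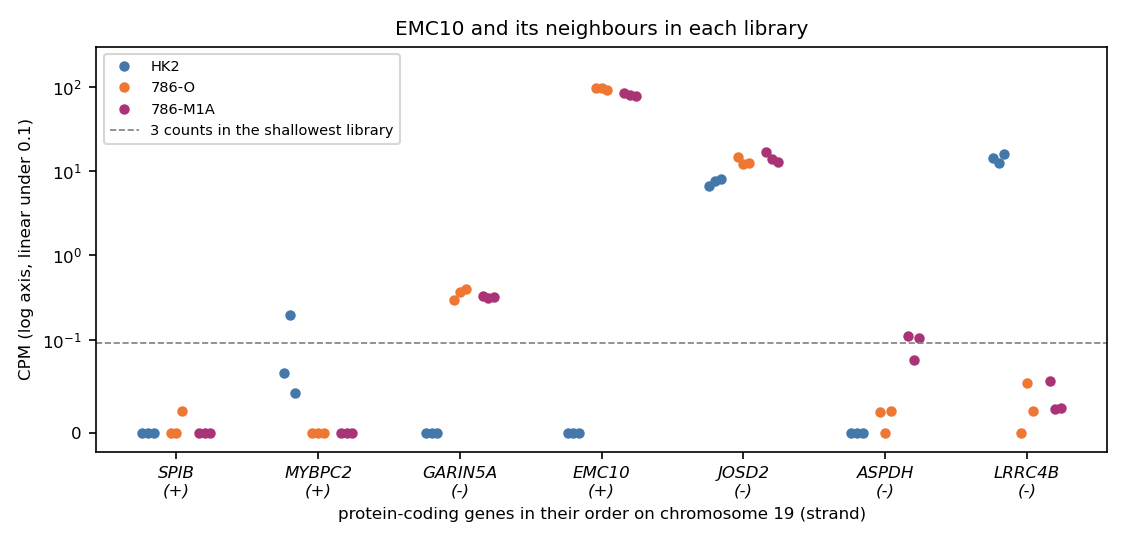
EMC10 and the 3 protein-coding genes on each side of it are plotted in their order on chromosome 19 (x axis, strand in brackets), with the level in CPM on a log axis that is linear below 0.1 (y axis). Each point is a library and the dashed line is 3 counts in the shallowest library (0.0964 CPM). EMC10 and GARIN5A have no reads in HK2, JOSD2 is present in all lines, and LRRC4B is present in HK2 and at 2 reads or fewer elsewhere.

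By the distance between 9 log2 CPM values, the tested genes nearest to EMC10 were SLC17A9 (distance 1.28), ITIH5, a secreted inhibitor protein (1.62), and PRAME, a tumor antigen (2.36). ITIH5 and PRAME had at most 2 reads in an HK2 library. SLC17A9 went from a mean of 89.8 CPM in 786-O to 134 CPM in 786-M1A, so it ran opposite to EMC10 in this step. PRAME went from 58.1 to 40.1 CPM. These distances rest on 3 lines and are led by the 0 or near 0 level in HK2.

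EMC1 encodes the largest subunit, whose lumenal propeller domains carry much of the lumenal mass of the complex, and lies at chr1:19215660-19251524 on the minus strand. Its level was 200, 185 and 197 CPM in HK2, 258, 268 and 260 CPM in 786-O, and 245, 268 and 258 CPM in 786-M1A. Every library of the cancer lines lay above every HK2 library, while the cancer lines overlapped. Relative to HK2 the level was 1.35-fold in 786-O (log2 fold change 0.43, SE 0.0401, edgeR adjusted p = 1.66e-09) and 1.32-fold in 786-M1A (log2 fold change 0.40, edgeR adjusted p = 4.72e-09).

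EMC7, a lumenal subunit with a single membrane helix, lies at chr15:34084017-34101862 on the minus strand and had the largest tested difference from HK2 among the members. It had 44.6, 47.3 and 47.3 CPM in HK2, 73.3, 75.8 and 73.4 CPM in 786-O, and 65.2, 62.5 and 64.3 CPM in 786-M1A. The 3 lines did not overlap, with 786-O highest and 786-M1A between it and HK2. Against HK2, 786-O differed by 0.67 on the log2 scale (SE 0.0417, edgeR adjusted p = 1.61e-12) and 786-M1A by 0.46 (edgeR adjusted p = 1.23e-09). From 786-O to 786-M1A it fell by 0.21 on the log2 scale (SE 0.0409, edgeR adjusted p = 0.000143).

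EMC4, a small membrane subunit that lines the side of the insertion cavity, lies on the same chromosome, at chr15:34225016-34230156 on the plus strand. Its level was 49.0, 50.4 and 49.0 CPM in HK2, 52.4, 53.4 and 54.1 CPM in 786-O, and 56.0, 51.9 and 53.7 CPM in 786-M1A. The cancer lines lay just above HK2 without overlap and overlapped with each other. Over HK2 the log2 fold change was 0.11 for 786-O (95% interval 0.02 to 0.20, edgeR adjusted p = 0.0251) and 0.12 for 786-M1A (0.03 to 0.21, edgeR adjusted p = 0.0125). The call in 786-O was lost without replicate 1 or 3 of HK2 or replicate 2 or 3 of 786-O, with adjusted p between 0.0508 and 0.0946, and upper-quartile scaling ended it in both lines (edgeR adjusted p = 0.172 and 0.128).

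EMC3, the core subunit related to the bacterial insertase YidC, lies at chr3:9962682-10011118 on the minus strand. It had 36.2, 41.9 and 38.8 CPM in HK2, 43.2, 43.7 and 43.4 CPM in 786-O, and 47.2, 43.7 and 46.6 CPM in 786-M1A. HK2 lay lowest without overlap, and the cancer lines overlapped. Over HK2, 786-O was 0.15 higher on the log2 scale (edgeR adjusted p = 0.00848) and 786-M1A 0.23 higher (edgeR adjusted p = 0.000296). Without replicate 1 of HK2, the lowest library, the call in 786-O was lost, with a log2 fold change of 0.10 and an edgeR adjusted p of 0.0798, and with upper-quartile scaling the adjusted p was 0.0517.

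Among the genes beside EMC3, FANCD2 and BRK1 were higher in both cancer lines as well. FANCD2, a DNA repair gene, had log2 fold changes over HK2 of 0.47 (edgeR adjusted p = 7.19e-09) and 0.64 (edgeR adjusted p = 3.3e-11) for 786-O and 786-M1A. BRK1, an actin regulator, had 0.23 (edgeR adjusted p = 5.87e-06) and 0.61 (edgeR adjusted p = 1.29e-12). On the other side, CRELD1 had 0.16 in 786-O (edgeR adjusted p = 0.0376) and IL17RC had -0.17 (edgeR adjusted p = 0.0413), each with overlapping libraries. PRRT3 ran the other way, with 73 to 104 reads in HK2, 18 to 24 in 786-O and 10 to 14 in 786-M1A. Its mean was 2.21 CPM for HK2, 0.516 CPM for 786-O and 0.313 CPM for 786-M1A. PRRT3 and FANCD2OS, the latter with at most 2 reads, were not tested. EMC3-AS1, an antisense RNA within the span of EMC3 that shares 0 exon bases with it, was higher in both cancer lines than in HK2, with log2 fold changes of 0.45 (edgeR adjusted p = 3.91e-05) and 0.24 (edgeR adjusted p = 0.0159).

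EMC6, the small partner of EMC3 in the core, lies at chr17:3668812-3669665 on the plus strand and was nearly unread. It had 19, 31 and 36 reads in HK2, 65, 52 and 44 reads in 786-O, and 39, 30 and 44 reads in 786-M1A. These are 0.611 to 0.777 CPM for HK2, 1.04 to 1.46 CPM for 786-O and 0.781 to 1.16 CPM for 786-M1A, with both cancer lines above HK2. Its mean of 40.0 counts was under the 50 counts asked of a tested gene. Without that filter 786-O differed from HK2 by 0.85 on the log2 scale (edgeR adjusted p = 0.000116) and 786-M1A by 0.49 (edgeR adjusted p = 0.0482), and with at least 10 counts asked of every library the latter was 0.44 (edgeR adjusted p = 0.0645). Of its exon bases, 74% lie in exons of P2RX5-TAX1BP3 on the other strand, which had 13 to 34 reads in the libraries, so the level of EMC6 is uncertain.

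MMGT1, the fifth subunit, which joins EMC3 and EMC6 in the membrane, was lower in both cancer lines than in HK2. It had 80.9, 83.8 and 84.7 CPM in HK2, 68.8, 67.2 and 66.3 CPM in 786-O, and 67.3, 68.7 and 67.9 CPM in 786-M1A. HK2 lay highest without overlap, and the cancer lines overlapped. 786-O differed by -0.30 (edgeR adjusted p = 2.95e-07) and 786-M1A by -0.29 (edgeR adjusted p = 5.04e-07) on the log2 scale.

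On the cytosolic face, EMC2, the scaffold of helical repeats that holds the face together, lies at chr8:108443624-108489196 on the plus strand and showed no called difference. It had 52.6, 55.2 and 52.1 CPM in HK2, 53.0, 54.1 and 56.9 CPM in 786-O, and 54.6, 54.9 and 60.6 CPM in 786-M1A. All 3 lines overlapped. The 95% interval of the log2 fold change against HK2 ran from -0.07 to 0.13 in 786-O (edgeR adjusted p = 0.503) and from -0.01 to 0.19 in 786-M1A (edgeR adjusted p = 0.0936). Without replicate 1 or 2 of 786-M1A the latter passed the threshold, with log2 fold changes of 0.12 and edgeR adjusted p of 0.0268 and 0.042. It also passed with no filter on low counts (0.12, edgeR adjusted p = 0.0238) and on median-centred log2 counts (0.12, limma adjusted p = 0.0301).

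EMC8 and EMC9 are paralogs that occupy the same place beside EMC2, so a complex holds one or the other. EMC8, at chr16:85778624-85799544 on the minus strand, had 58.1, 63.9 and 60.3 CPM in HK2, 57.3, 54.4 and 53.5 CPM in 786-O, and 59.9, 57.7 and 58.3 CPM in 786-M1A. The 786-O libraries lay below those of both other lines, and 786-M1A overlapped with HK2. From HK2, 786-O differed by -0.14 on the log2 scale (edgeR adjusted p = 0.00559) and 786-M1A by -0.05 (95% interval -0.15 to 0.04, edgeR adjusted p = 0.269). The call in 786-O was lost on median-centred log2 counts (limma adjusted p = 0.0575), and with upper-quartile scaling 786-M1A passed at -0.10 (edgeR adjusted p = 0.0456). Between 786-M1A and 786-O it was 0.09 (edgeR adjusted p = 0.0944), which passed the threshold without replicate 1 of 786-O (log2 fold change 0.13, edgeR adjusted p = 0.0406).

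EMC9, at chr14:24138965-24141591 on the minus strand, was lower in both cancer lines. It had 12.9, 13.7 and 12.4 CPM in HK2, 9.62, 9.98 and 8.80 CPM in 786-O, and 10.2, 9.53 and 8.98 CPM in 786-M1A. HK2 lay above both cancer lines without overlap. On the log2 scale 786-O differed by -0.46 (SE 0.0724, edgeR adjusted p = 4.83e-06) and 786-M1A by -0.45 (edgeR adjusted p = 8.75e-06), which is 0.726-fold and 0.734-fold of HK2.

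The balance of the paralogs was read as the share of EMC9 in EMC8 plus EMC9 per kb of the main transcript. This share was 34.3%, 33.5% and 32.6% in HK2, 28.3%, 30.1% and 27.8% in 786-O, and 28.5%, 27.9% and 26.5% in 786-M1A. Every HK2 library lay above every library of the cancer lines, which overlapped. The mean share was 33.5% ± 0.856 (SD, n = 3 in each line) for HK2, 28.7% ± 1.19 for 786-O and 27.7% ± 1.03 for 786-M1A. The two-sided exact permutation p was 0.1 for each cancer line against HK2 (0.15 adjusted over 3 comparisons), the smallest that 3 against 3 libraries can give, so this design cannot reach the threshold of 0.05. Between the cancer lines it was 0.5, also 0.5 after adjustment.

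**Figure D3:**
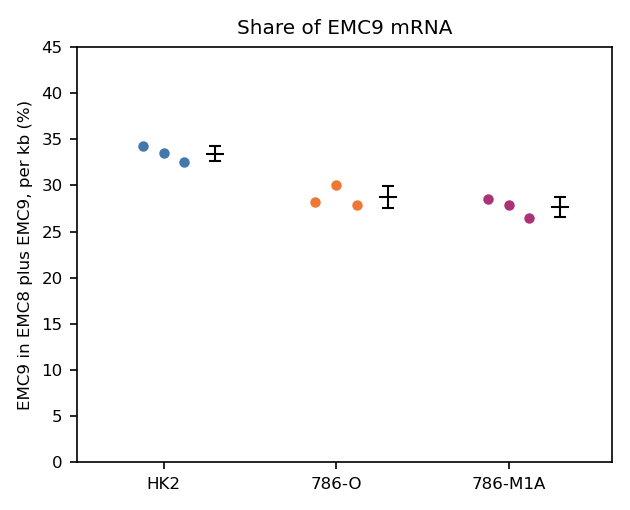
The share of EMC9 in EMC8 plus EMC9, as reads per kb of the main transcript, is plotted in percent (y axis, starting at 0) for each library (points) by line (x axis), with the mean ± SD of 3 libraries. HK2 lies between 32.6% and 34.3%, and the cancer lines lie between 26.5% and 30.1%.

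Over the members as a set, most differences from HK2 were small. In 786-O, 6 of the 7 members tested beside EMC10 passed the threshold, 4 higher and 2 lower, where 84.2% of all genes tested passed it, 41.6% higher and 42.6% lower. The libraries of 786-O and HK2 did not overlap for 6 of the 7, against 85.4% of all genes. In 786-M1A against HK2, 5 of 7 passed, 4 higher and 1 lower, against 84.9% of all genes, 41.6% higher and 43.3% lower. There, 5 of 7 did not overlap, against 85% of all genes. With so few members these counts lie near the shares of all genes, and the comparisons share the HK2 libraries.

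The size of the differences is given by the median of the absolute log2 fold change, which was 0.15 over the 7 members and 0.47 over all genes in 786-O against HK2. In 786-M1A against HK2 it was 0.23 over the members and 0.51 over all genes. For 786-M1A against 786-O it was 0.06 over the 8 members tested and 0.17 over all genes. In that comparison 2 of 8 members passed, both lower, against 56% of all genes (27.9% higher and 28% lower), and 3 of 8 did not overlap against 61.6%. The 6 members not called lay between -0.03 and 0.09 on the log2 scale.

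**Figure D4:**
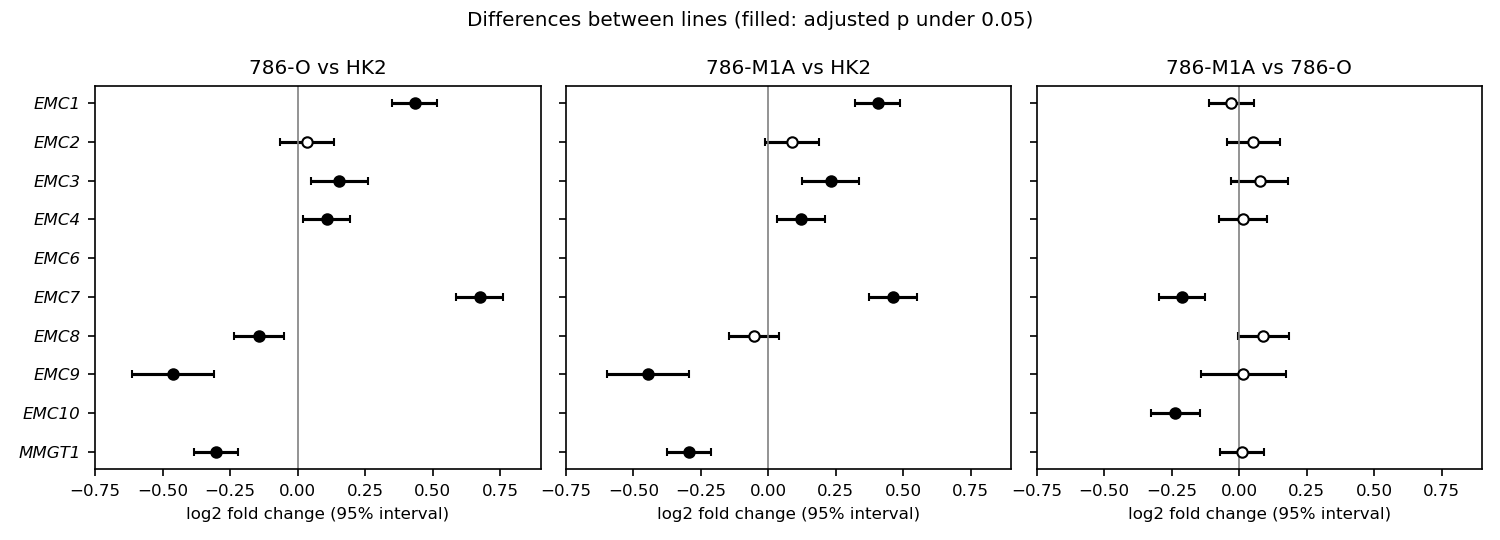
The log2 fold change of each member and of MMGT1 (rows) is plotted with its 95% interval (x axis) for the 3 comparisons, with filled points where the adjusted p was under 0.05. EMC7 and EMC1 lie right of 0 and EMC9 and MMGT1 left of 0 against HK2, EMC7 and EMC10 lie left of 0 in 786-M1A against 786-O, EMC6 has no point because it was not tested, and EMC10 has none against HK2.

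The summed level of the 8 members without EMC10 ran from 454 to 458 CPM for HK2, from 548 to 561 CPM for 786-O and from 539 to 552 CPM for 786-M1A. EMC1 was the largest term, at 185 to 268 CPM, on a scale that is not divided by transcript length. With EMC10 the cancer lines reached 644 to 657 CPM and 624 to 630 CPM.

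The members and MMGT1 were put in order by CPM per kb of the main GENCODE transcript. On that scale HK2 ran from EMC4 (48.5) through EMC7 (43.4), EMC8 (30.9) and EMC1 (29.2) to EMC3 (16.5), MMGT1 (16.2), EMC9 (15.5) and EMC2 (15.1), with EMC6 at 1.10 and EMC10 at 0. EMC8 overlapped with EMC1 there, and each of EMC3, MMGT1, EMC9 and EMC2 overlapped with the next. In 786-O, EMC7 led with 69.4 CPM per kb, followed by EMC4 (52.3), EMC1 (39.5), EMC8 (28.0), EMC3 (18.5), EMC2 (15.5), MMGT1 (13.1), EMC9 (11.3), EMC10 (10.1) and EMC6 (1.97), and no neighbours in that order overlapped. The order was the same in 786-M1A, from EMC7 at 59.9 to EMC10 at 8.57 and EMC6 at 1.54, again without overlap between neighbours.

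The place of EMC10 in that order depends on its transcript. Its main transcript has 9439 bases, and a shorter one has 2014 bases. Divided by the shorter one, the same reads give 47.3 CPM per kb in 786-O and 40.2 in 786-M1A, which would put EMC10 next to EMC4 and EMC1. The counts are per gene and do not say which transcript was read. EMC4 moves as well, from 52.9 to 12.1 CPM per kb in 786-M1A when the 4445 bases of all its exons replace the 1019 bases of the main transcript.

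Other routes into the membrane were read from lists of genes. Of all genes tested, 41.6% were higher and 42.6% lower in 786-O than in HK2. In 786-M1A 41.6% were higher and 43.3% lower than in HK2. The median log2 fold changes over all genes were -0.01 and -0.02 in these comparisons. From 786-O to 786-M1A, 27.9% of all genes were higher and 28% lower. The tail-anchor route (GET), which hands tail-anchored proteins from the cytosol to another insertase, had 4 of 7 genes higher and 3 lower in 786-O, and 5 higher and 2 lower in 786-M1A, against HK2, so that all 7 were called where 84.2% and 84.9% of all genes were. GET3, its targeting ATPase, had log2 fold changes of 0.62 (edgeR adjusted p = 1.61e-11) and 0.66 (edgeR adjusted p = 5.38e-12). GET4, which helps load it, had -0.55 (edgeR adjusted p = 8.37e-10) and -0.78 (edgeR adjusted p = 2.62e-12), and the step from 786-O to 786-M1A was -0.23 (edgeR adjusted p = 0.000606). Between the cancer lines 1 gene of this list was higher in 786-M1A, UBL4A, a partner of GET4, at 0.63 (edgeR adjusted p = 2.9e-11), and 2 were lower.

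The multipass translocon, which works beside the SEC61 channel on proteins with several helices, had 8 of 9 genes higher and 0 lower in each cancer line against HK2, where 41.6% of all genes were higher in either, with median log2 fold changes of 0.47 and 0.48. NOMO2 had the largest, 1.14 (edgeR adjusted p = 1.12e-14) and 1.10 (edgeR adjusted p = 2.05e-14). Its near-identical copies NOMO1 and NOMO3 are on the list too, and the split of reads among the 3 copies is uncertain. All 3 copies are among the 8 higher genes, so the count and the medians are not of independent genes. CCDC47, of the part that shields hydrophilic helices, was the 1 gene called between the cancer lines, at -0.13 in 786-M1A (edgeR adjusted p = 0.0125). Of all genes, 56% were called in that comparison.

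The SEC61 channel and its partners had 6 of 12 genes higher and 4 lower in 786-O, and 8 higher and 4 lower in 786-M1A, against HK2, with medians of 0.14 and 0.30. The 10 of 12 called in 786-O lie near the 84.2% of all genes called there, and 84.9% were called in 786-M1A. SEC61A2, a second form of the channel, was highest with 0.67 (edgeR adjusted p = 9.89e-09) and 0.75 (edgeR adjusted p = 1.65e-09). TRAM1, a partner that contacts signal sequences, was lowest in 786-O with -0.62 (edgeR adjusted p = 6.07e-14), and SEC63 was lowest in 786-M1A with -0.62 (edgeR adjusted p = 1.01e-12). Between the cancer lines 3 were higher and 4 lower in 786-M1A, from SSR4 at 0.56 (edgeR adjusted p = 1.25e-09) to SEC62 at -0.24 (edgeR adjusted p = 9.79e-06). Of all genes, 27.9% were higher and 28% lower there.

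The signal recognition particle and its receptor had 3 of 8 genes higher and 2 lower in 786-O, and 4 higher and 3 lower in 786-M1A, against HK2, where 84.2% and 84.9% of all genes were called in either direction. SRPRA, a receptor subunit, was higher (0.75, edgeR adjusted p = 7.7e-14, and 0.81, edgeR adjusted p = 1.49e-14), while SRP54, which binds the signal sequence, was lower (-0.73, edgeR adjusted p = 5.94e-14, and -0.71, edgeR adjusted p = 8.19e-14). Between the cancer lines 1 was higher, SRPRB at 0.10 (edgeR adjusted p = 0.0325), and 3 were lower, with SRP68 lowest at -0.18 (edgeR adjusted p = 0.000166). Of all genes, 27.9% were higher and 28% lower there.

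Chaperones and stress response genes of the ER had 13 of 17 higher and 4 lower in 786-O, and 9 higher and 2 lower in 786-M1A, against HK2, where 41.6% of all genes were higher in either. The medians were 0.24 and 0.29, beside -0.01 and -0.02 over all genes. PDIA4, a disulfide isomerase, was highest (0.72, edgeR adjusted p = 4.29e-15, and 0.87, edgeR adjusted p = 1.31e-16). DDIT3, a transcription factor of sustained ER stress, was lowest (-0.52, edgeR adjusted p = 4.36e-06, and -0.88, edgeR adjusted p = 3.74e-09). From 786-O to 786-M1A 6 were higher and 8 lower, from SDF2L1 at 0.45 (edgeR adjusted p = 4.29e-05) to PDIA3 at -0.41 (edgeR adjusted p = 2.19e-09). Of all genes, 27.9% were higher and 28% lower in that step.

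Of 3 genes whose proteins are known to need the EMC, FDFT1 and SOAT1 could be tested. FDFT1, the squalene synthase with a tail anchor, had 170, 172 and 171 CPM in HK2, 120, 112 and 118 CPM in 786-O, and 141, 131 and 135 CPM in 786-M1A. SOAT1, which esterifies cholesterol, had 195, 192 and 200 CPM in HK2, 128, 135 and 135 CPM in 786-O, and 141, 153 and 157 CPM in 786-M1A. For both genes the 3 lines did not overlap, with HK2 highest and 786-O lowest. The log2 fold changes of FDFT1 were -0.55 (edgeR adjusted p = 2.11e-11) and -0.34 (edgeR adjusted p = 5.82e-08) against HK2, and 0.21 (edgeR adjusted p = 0.000108) in 786-M1A against 786-O. SOAT1 had -0.56 (edgeR adjusted p = 2.78e-11) and -0.38 (edgeR adjusted p = 1.59e-08) against HK2. ADRB1, an adrenergic receptor, had 36 to 71 reads in the HK2 libraries and 0 in all others, and was not tested. RNA levels do not show how much of these proteins was inserted.

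**Figure D5:**
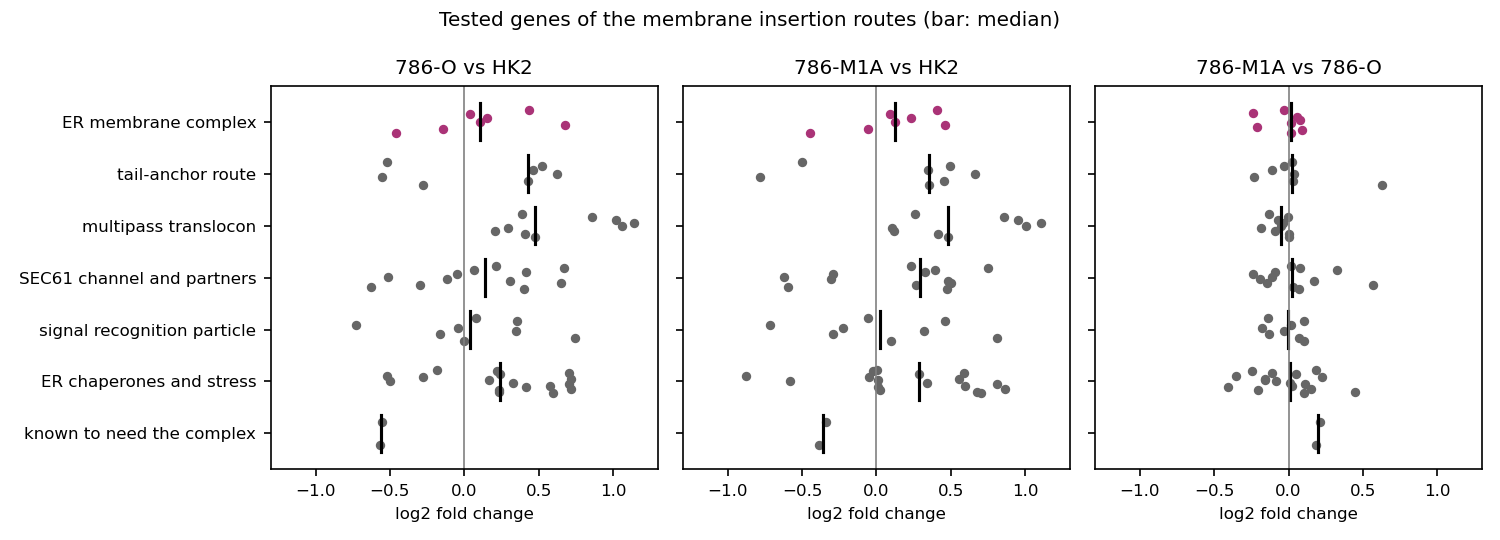
Each point is the log2 fold change (x axis) of a tested gene in the EMC (coloured) and in the other lists (gray), grouped by list (y axis), for the 3 comparisons, with a bar at each median. Against HK2 the points of the multipass translocon lie right of 0, with medians of 0.47 and 0.48, while the members of the EMC lie on both sides with medians of 0.11 and 0.12.

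The lines were read against markers of cell types. Of 10 proximal tubule genes, HNF4A and LRP2 had at most 3 counts in every library of HK2 and of 786-M1A, and LRP2 and SLC34A1 in every library of 786-O, and the summed level was 402 to 416 CPM for HK2, 502 to 525 CPM for 786-O and 400 to 438 CPM for 786-M1A. Among them ANPEP, a brush border peptidase, was at 1.74 CPM for HK2, 112 CPM for 786-O and 19.8 CPM for 786-M1A (log2 fold changes over HK2 of 6.01, edgeR adjusted p = 3.8e-25, and 3.52, edgeR adjusted p = 5.28e-20). GGT1, another brush border enzyme, differed from HK2 by -0.42 (edgeR adjusted p = 1.1e-08) and -0.29 (edgeR adjusted p = 3.09e-06), and PAX8, a transcription factor of the tubule, by 0.14 from 786-O to 786-M1A (edgeR adjusted p = 0.00629). Of 4 ccRCC genes, CA9 had at most 3 counts in all lines, and the summed level was 363 to 395, 264 to 292 and 492 to 501 CPM for HK2, 786-O and 786-M1A. Genes of opposite direction stand in that sum. Of the 3 tested, 1 was higher and 2 were lower than HK2 in both cancer lines. On the log2 scale PLIN2 differed by -0.53 in 786-O (edgeR adjusted p = 2.45e-09) and -0.31 in 786-M1A (edgeR adjusted p = 7.14e-06). VEGFA, an angiogenic factor, had log2 fold changes over HK2 of 3.07 (edgeR adjusted p = 1.11e-22) and 4.09 (edgeR adjusted p = 1.13e-24), while EPAS1, the gene of HIF2A, had -1.94 (edgeR adjusted p = 3.16e-20) and -1.31 (edgeR adjusted p = 1.93e-17). Of 7 genes of leukocytes, endothelium and fibroblasts, PTPRC, CD3E, PECAM1 and CDH5 had at most 3 counts in every library. The summed level of these 7 was 54.6 to 63.4 CPM in HK2, 264 to 332 CPM in 786-O, led by COL1A1 at 291 ± 34.7 CPM (SD, n = 3), and 297 to 301 CPM in 786-M1A, led by PDGFRB at 282 ± 3.08 CPM. The part of these genes in the results above was not tested.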

How the data were processed

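The authors plated the cells in replicate dishes, prepared TruSeq Stranded mRNA libraries and sequenced them on a NextSeq. They counted reads on genes with Rsubread (featureCounts per the labels) on GRCh38 and deposited the raw counts. The annotation version and the strand setting are not given in the sources used here. Of 28395 gene identifiers, 27745 matched a RefSeq symbol (GRCh38.p14) and 650 did not. Promoter sequences are those of RefSeq, and exon and transcript lengths come from GENCODE release 44.

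Groups came from the labels. The study's filter, a mean of 50 counts or more, left 12695 genes, which were tested with the robust quasi-likelihood test of edgeR 4.0.16 in R 4.3.3, in 1 fit of all 9 libraries with TMM and a coefficient per line, with Benjamini-Hochberg adjustment over all of them (threshold 0.05). Median-centred log2 counts with limma 3.58.1, near to the study's own scheme, were an alternative, as were DESeq2 1.42.0, RLE and upper-quartile factors, other filters, a fit of 2 lines, a replicate block, and leaving out each library. The EMC9 share was compared by exact permutation (scipy 1.17.1). No replicate pair agreed within sampling noise. The code was tested on simulated data.

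The members and lists were chosen with earlier results of these data known. Named were the members and MMGT1, per list and comparison the called genes with the largest positive and negative log2 fold change, 3 protein-coding neighbours on each side of EMC10 and EMC3, the 3 genes nearest to EMC10, overlapping genes and markers. PREX2, WT1 and SLC17A9 among the genes at 0 in HK2, and the motif, were picked after their values were seen. Genes of the Y chromosome are not named, and single results of some overlapping genes are not reported here. NDUFA4L2, a ccRCC marker, was not analysed here, nor was protein. Floors of 3 counts cover counting error only.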

Additional observations from a re-analysis of the deposited data

How the results depend on the processing

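EMC6 had only 19 to 65 reads, and what kept this number low was not tested. Depth limited the bounds on EMC10 in HK2. Of the log2 fold changes of single members recomputed under each alternative, 352 kept their direction and side of the threshold, 10 lost a call, 6 gained one, and 5 changed sign, with adjusted p from 0.761 to 0.899. For 786-M1A against 786-O the number of members called fell from 2 to 1 with at least 10 counts in every library, which removes EMC10 by construction, and to 1 with median-centred log2 counts and limma, where EMC10 had a log2 fold change of -0.25 and an adjusted p of 0.11; for limma the cause was not tested. With upper-quartile factors EMC2 in 786-O against HK2 turned to -0.0069, and 4 members were called there, EMC3 and EMC4 being lost (edgeR adjusted p = 0.0517 and 0.172). Between the cancer lines, log2 fold changes near 0 changed sign with 1 library left out: EMC9 ran from -0.0342 (without replicate 3 of 786-O) to 0.0698, EMC1 from -0.0513 to 0.0105 and EMC4 from -0.0089 to 0.0493, the sign of all 3 being turned by leaving out replicate 1 of 786-M1A. With 1 library left out, the members called numbered 4 to 6 in 786-O against HK2, 5 to 6 in 786-M1A against HK2 and 2 to 3 between the cancer lines. On raw counts without length the EMC9 share differed from HK2 by -2.98 percentage points in 786-O and -3.63 in 786-M1A, against -4.73 and -5.79 per kb. The union of exons as length was chosen after seeing the data and gave -4.86 and -5.95.

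The replicate numbers did not pair the libraries. Same-numbered libraries deviated from their line means with correlations of -0.17 to 0.22 over genes, and a replicate block left the members called at 6, 5 and 2 in the 3 comparisons, as without it.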
